A study of Mus musculus with 2 samples.

Results

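The Mir379 to Mir410 cluster is a run of miRNA genes on mouse chromosome 12 inside the imprinted Dlk1-Dio3 domain. Its members were taken by position, not by level: every miRNA gene row of the files that lies on chr12:109709060-109747960 (GRCm38), a span of 38.9 kb. That gave 38 of the 1973 gene rows. Of these, 34 lie on the plus strand and were read by the counts on their own strand. The other 4 are minus-strand rows that overlap a plus-strand miRNA gene, and their counts on the plus strand stand in for that gene: Gm24321 for Mir409, Gm25252 for Mir376a, Mir299b for Mir299a and Gm25750 for Mir380. They are called by the plus-strand names from here on. Mir376b and Gm44322, annotated in the same span, had no row and were not analysed here.

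The RNA came from the facial prominences, the swellings that form the jaws, palate and nose, of B6NCrl mouse embryos at day 13.5, with males and females pooled. RNA shorter than 30 bases was sequenced in 2 libraries, labelled biological replicates 1 and 2 of a single group labelled healthy, with no treatment named, so there is no contrast between conditions. The libraries came from separate tissue samples that share a donor entry in the labels, and the number of embryos pooled was not given there. Counts on the strand of the gene came to 4562135 in replicate 1 and 5771249 in replicate 2. Levels are CPM, counts per 1000000 of that total. A small RNA read covers nearly a whole mature miRNA, so CPM was compared between genes without scaling by gene length. Scaling by the length of the annotated row left the number of members above 1000 CPM at 11. How evenly different miRNA sequences enter such libraries was not tested, and likeness between the libraries does not show it. Folds between genes are therefore folds in counts. In this tissue Mir140 of cartilage stood at 20657 ± 2904 CPM (SD, n = 2) and Mir126a of endothelium at 24841 ± 1371 CPM. Of the mesenchymal markers, Mir214 stood at 25707 ± 1581 CPM, Mir199a-2 at 265 ± 34.2 CPM and Mir199a-1 at 24.3 ± 4.88 CPM. The 5 epithelial markers together came to 55445 ± 726 CPM. Striated muscle markers summed to 454 ± 183 CPM over the 5 of 6 listed genes that had a row. Mir206 alone gave 442 ± 181 CPM of this, while Mir1a-1, Mir133a-1 and Mir133a-2 were at 0. Blood markers summed to 494 ± 28.5 CPM, and Mir122 of liver had 79.4 ± 42.3 CPM. Markers of neurons, where the cluster is best known, summed to 714 ± 44.4 CPM over the 10 of 11 listed genes that had a row (746 and 683 CPM in the libraries). Of those 10 genes, 3 were at 0, namely Mir124a-1, Mir124a-3 and Mir9-2, which share their mature sequences with other loci. Reads that fit several loci were not counted, so the neuronal sum, the muscle sum and the Mir199a values can be too low. The Mir1a and Mir133a genes of muscle are also listed with several loci each. Among the neuronal markers this limit is not confined to the genes at 0. It also applies to the other Mir124a, Mir9, Mir128 and Mir138 genes, which are listed with several loci each. The part of any single cell type in the levels given here was not tested. In whole tissue a smaller number of expressing cells and less RNA per cell cannot be told apart.

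The miRNAs of this cluster are cut from long noncoding RNA made only from the maternally inherited chromosome, and the cluster is found in placental mammals. In neurons its transcription is known to be driven by activity through Mef2, and several of its products act on dendrites and synapses. A miRNA finds its targets mainly through its seed, the bases 2 to 8 from its 5′ end, so that genes with the same seed are grouped as a family. Each hairpin can give a miRNA from its 5′ arm (5p) and from its 3′ arm (3p). The counts are per gene and do not say which arm a read came from.

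RefSeq (GRCm38.p6) listed a mature sequence for 37 of the 38 members, Gm27379 being the exception, with 69 arms in all. Only 1 arm was listed for Mir376c, Mir453, Mir485, Mir487b and Mir539. Families that rest on an unlisted arm are missed here, so their number and their share of the cluster's total can be too low. The 69 arms held 64 different seeds, so most members share a listed seed with no other member. There were 5 seed families, each a pair, and they took in 9 members. They are printed first because the levels by family rest on them, with the seed in capitals and the pairs in the order Mir379 with Mir411, Mir379 with Mir1193, Mir494 with Mir410, Mir1197 with Mir758, and Mir496a with Mir453.
mmu-miR-379-3p: uAUGUAACaugguccacuaacu
mmu-miR-411-3p: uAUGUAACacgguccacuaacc
mmu-miR-379-5p: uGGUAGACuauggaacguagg
mmu-miR-1193-5p: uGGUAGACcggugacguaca
mmu-miR-494-5p: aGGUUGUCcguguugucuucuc
mmu-miR-410-5p: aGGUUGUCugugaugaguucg
mmu-miR-1197-5p: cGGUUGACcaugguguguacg
mmu-miR-758-5p: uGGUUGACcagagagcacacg
mmu-miR-496a-5p: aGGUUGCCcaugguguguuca
mmu-miR-453: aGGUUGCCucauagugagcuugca

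Beyond the seed the pairs differed in how alike they were, read base by base from the 5′ end. The 3p arms of Mir379 and Mir411 were the same at 20 of 22 bases, and the 5p arms of Mir494 and Mir410 at 16 of 21. The 5p arms of Mir1197 and Mir758 matched at 14 of 21 bases, those of Mir379 and Mir1193 at 10 of 20, and Mir496a and Mir453 at 8 of 21.

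Many 5p arms of the cluster carried variants of 1 short run at their start. The run GGUNNNC, where N is any base, began at base 1 to 4 in 17 of 35 member 5p arms (48.6%). Among other mouse 5p arms of RefSeq, with identical sequences counted once, 12 of 660 held it (1.82%), and among the other genes of the imprinted domain 2 of 16 (12.5%). Of the members' 3p arms 1 of 33 had it (3.03%), and of other mouse 3p arms 7 of 671 (1.04%). The single listed product of Mir453 also has the run, but carries no arm name and was not counted. Only the strand of the miRNA was searched. The run was chosen after the arms had been set side by side, so its frequency is a description of the cluster and was not tested. In 13 of the 17 arms it began at base 2 and was therefore the seed itself. It began at base 3 in 2 arms, at base 4 in 2 and at base 1 in 0. Besides the 7 5p arms with it among the pairs printed above, it stood in the following 10, where capitals mark the run.
mmu-miR-299a-5p: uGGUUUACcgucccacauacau
mmu-miR-323-5p: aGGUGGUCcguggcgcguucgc
mmu-miR-487b-5p: uGGUUAUCccuguccucuucg
mmu-miR-654-5p: uGGUAAGCugcagaacaugugu
mmu-miR-409-5p: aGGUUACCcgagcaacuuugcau
mmu-miR-412-5p: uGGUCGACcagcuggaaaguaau
mmu-miR-380-5p: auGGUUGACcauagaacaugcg
mmu-miR-154-5p: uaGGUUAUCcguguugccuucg
mmu-miR-329-5p: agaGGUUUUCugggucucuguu
mmu-miR-377-5p: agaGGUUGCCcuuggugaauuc

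Detected members with this run ranged from Mir758, at 22.6 and 17.5 CPM in the libraries, to Mir487b, with a mean of 6027 CPM. A gene was called detected with at least 10 counts in both libraries, and Mir1197 and Mir654, which also have the run, fell short of that. The median over the 15 detected members with it was 302 CPM, and over the 17 detected members whose listed 5p arm lacked it 353 CPM. Of the 5 highest members, Mir487b and Mir409 had the run and Mir411, Mir369 and Mir382 did not. The arms of those 3 genes, and the 3p arm of Mir409, are printed next with the seed in capitals, since these 5 genes gave 60.8 ± 0.167% of the cluster's total. The 3p arm of Mir411, the 5p arm of Mir409 and the listed arm of Mir487b stand above.
mmu-miR-411-5p: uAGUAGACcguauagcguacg
mmu-miR-369-5p: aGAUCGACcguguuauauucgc
mmu-miR-369-3p: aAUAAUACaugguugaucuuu
mmu-miR-382-5p: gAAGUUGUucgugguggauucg
mmu-miR-382-3p: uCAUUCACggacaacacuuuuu
mmu-miR-409-3p: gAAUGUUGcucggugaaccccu

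The cluster was expressed nearly from end to end, at levels that ranged over 356-fold. Of its 38 rows 33 (86.8%) had at least 10 counts in both libraries, the minimum used here for a detected gene, beside 18.4% of all gene rows. Above 1000 CPM stood 11 members (28.9%), beside 4.92% of all rows. A further 13 lay above 100 and up to 1000 CPM, 9 above 10 and up to 100 CPM, and 2 below. Mir654, Mir453 and Gm27379 had no count in either library, which allows up to 0.658 CPM in replicate 1 and 0.520 CPM in replicate 2, for uniquely placed reads and counting error only. Just under the minimum, Mir1197 had 19 and 8 counts and Mir544 had 3 and 5, while the lowest detected member, Mir758, had 103 and 101.

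Together the 38 members came to 42427 and 40230.1 CPM in the libraries, with a mean of 41329 ± 1554 CPM (SD, n = 2). The plus-strand members alone held 3.32% of the counts of replicate 1 (95% Wilson interval 3.31 to 3.34) and 3.10% of those of replicate 2 (3.09 to 3.12). The 4 genes read through a minus-strand row added 9192 ± 6.02 CPM, which was 22.3 ± 0.822% of the cluster's total. With them, and over the counts of both strands, the cluster held 4.02 ± 0.150%. The intervals cover counting error only, as PCR copies without molecular identifiers are not independent molecules.

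**Figure D1:**
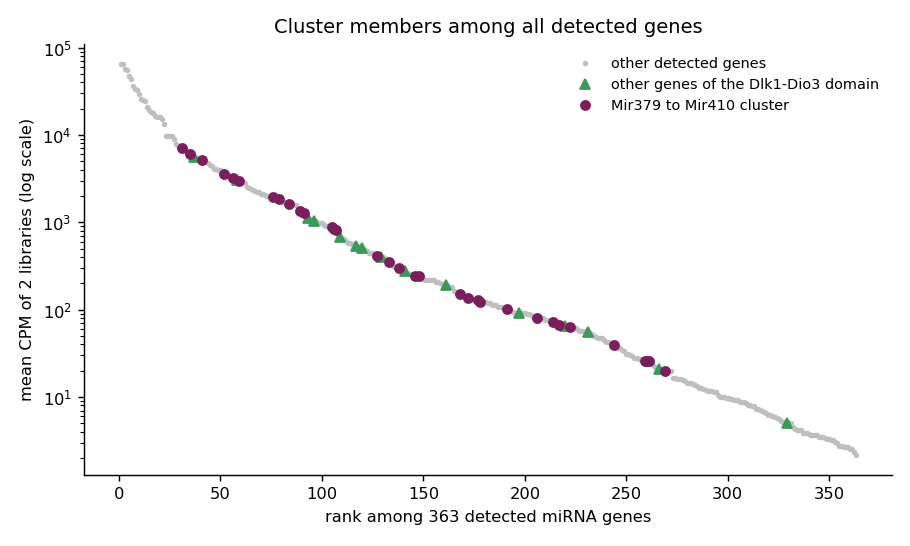
Mean CPM of the 2 libraries (log scale) against rank for the 363 miRNA genes with at least 10 counts in both libraries. The 33 detected members of the cluster (purple circles) run from 7135 CPM at Mir411 down to Mir758. The other domain genes (green triangles) lie among them, except Mir1188, which lies below at 5.03 CPM.

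Mir411 led the cluster, with 7136 and 7134 CPM (7135 ± 1.27 CPM). It lies at chr12:109710175-109710256 on the plus strand (ENSMUSG00000065477), between annotated host genes, and ranked 31 of all 1973 rows. Mir487b followed at 6528 and 5526 CPM (6027 ± 709 CPM). The libraries were almost equal at the former and 1.18-fold apart at the latter, and both values of Mir411 lay above both of Mir487b. Mir409 came next, with 5231 and 5098 CPM read on the strand opposite to Gm24321 at chr12:109743158-109743237, within an intron of the noncoding gene Mirg (5165 ± 93.8 CPM). Those 3 genes gave 44.3 ± 0.278% of the cluster's total, and the first 10 gave 84.5 ± 0.197%.

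Mir369 stood at 3528 and 3613 CPM (3571 ± 60.0 CPM), Mir382 at 3339 and 3152 CPM (3245 ± 133 CPM) and Mir379, the first gene of the run, at 3256 and 2741 CPM (2999 ± 364 CPM). The values of Mir382 and Mir379 overlapped between libraries, so their order is not fixed. Mir541 had 2085 and 1841 CPM, and Mir376a, whose primary transcript is a known target of A-to-I RNA editing, had 1747 and 1967 CPM. Their order was reversed between the libraries. Mir381 followed at 1631 and 1615 CPM. Mir299a stood at 1429.6 and 1251 CPM and Mir134, known for limiting the size of dendritic spines, at 1252 and 1282 CPM, again in changing order. In all, 11 of the 32 pairs of consecutive detected members in the order of level overlapped between the libraries.

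From the twelfth place on the levels fell below 1000 CPM. Mir1193 had 877 ± 49.7 CPM (SD, n = 2), Mir380 830.3 ± 58.3 CPM and Mir154 819 ± 16.1 CPM, with neighbouring values that overlapped. Mir300 stood at 408 ± 28.9 CPM, Mir543 at 353 ± 17.7 CPM, Mir323 at 302 ± 42.6 CPM, Mir376c at 245 ± 5.79 CPM and Mir494 at 241 ± 49.7 CPM. Mir485, a regulator of synaptic vesicle protein at neuronal synapses, came twentieth at 150.3 ± 2.56 CPM. The remaining 13 detected members lay between 137 ± 5.22 CPM at Mir329 and the 22.6 and 17.5 CPM of Mir758.

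The value of Mir299a needs a limit of its own. Mir299b is coded on the opposite strand of the same place. The 5p arm of Mir299a holds the whole 5p arm of Mir299b, and its 3p arm the whole 3p arm. They are printed to show this, in lower case throughout.
mmu-miR-299a-5p: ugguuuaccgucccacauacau
mmu-miR-299b-5p: gguuuaccgucccacauacau
mmu-miR-299a-3p: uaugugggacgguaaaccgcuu
mmu-miR-299b-3p: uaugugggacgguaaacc
A read of the shared bases alone fits a place on each strand. Reads with several places belong to no gene in these files, so the count of Mir299a can be too low. How reads with further bases were placed is not given in the sources used here. The row is also shorter than the hairpin it stands for, 49 against 63 bases. No other member arm held, or lay within, an arm listed for another gene.

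Levels showed no trend along the cluster but changed sharply from gene to gene. Across the 33 detected members, which share libraries and depth, mean log2 CPM against position gave a Pearson r of -0.05 and a Spearman rho of -0.10. The cluster was divided into 3 sections of 12.97 kb each. The first section held 15 rows and 35.2 ± 0.174% of the cluster's total, the middle section 13 rows and 36.0 ± 0.370%, and the last section 10 rows and 28.8 ± 0.543% (SD, n = 2). The median level of detected members was 271 CPM in the first section, 837 CPM in the middle and 122 CPM in the last. On the log2 scale, with 0.5 reads added, these medians were 8.06 ± 0.252 over 14 genes, 9.49 ± 0.039 over 10 and 6.94 ± 0.002 over 9. The height of the middle section rested on how it was drawn: with sections of equal gene number its median was 8.67, and with undetected members kept it was 7.93.

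**Figure D2:**
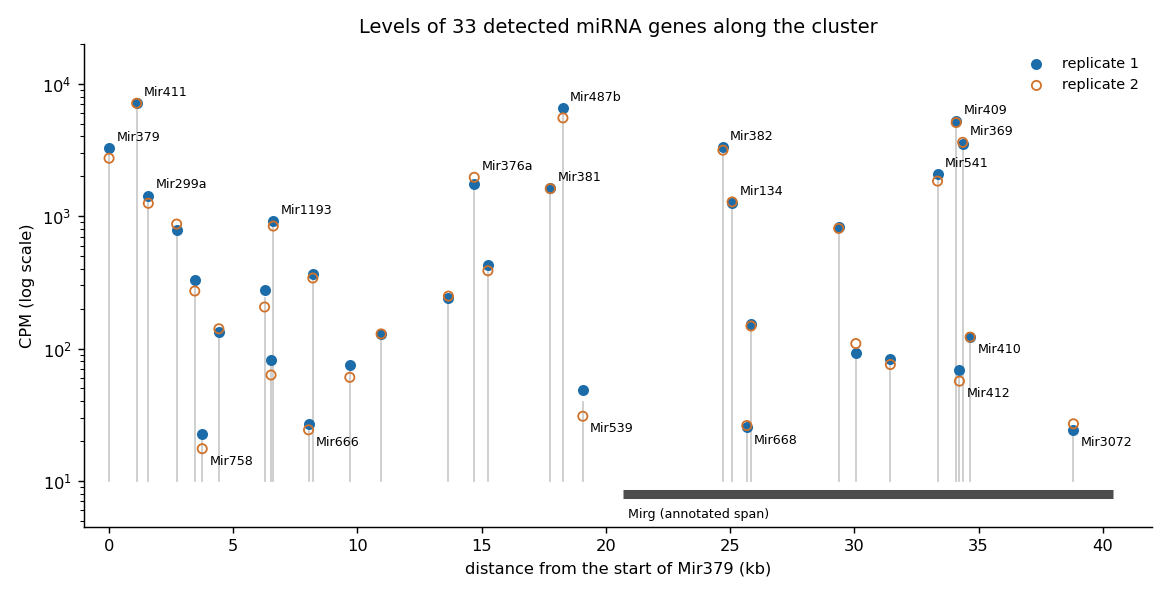
CPM (log scale) of each detected member against its distance in kb from the start of Mir379, with replicate 1 as filled and replicate 2 as open circles, grey lines up to the mean and the annotated span of Mirg as a bar. Mir487b and Mir409 each have a direct neighbour under 100 CPM, Mir539 and Mir412, while Mir411 lies between Mir379 and Mir299a, both above 1000 CPM.

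Each section held both a leading and a very low gene. In the first section Mir411 exceeded Mir758 by 356-fold. Mir487b exceeded Mir668 (25.8 ± 0.521 CPM) by 234-fold in the middle section, and Mir409 exceeded Mir3072 (25.7 ± 1.91 CPM) by 201-fold in the last. The annotated gene Mirg starts inside the cluster, at position 109729764. Upstream of it lay 24 members, with a median of 328 CPM over the 20 detected. Within Mirg, 9 members overlapped an exon of a transcript (median 122 CPM) and 5 an intron (median 1391 CPM over the 4 detected), as annotated in GENCODE M21.

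Some direct neighbours differed strongly in level. Mir409, Mir412, Mir369 and Mir410 sit within 638 bases of each other. Mir409 had 5231 and 5098 CPM, and Mir412, which starts 51 bases after its end, had 68.6 and 56.7 CPM, so the former was 76.2-fold higher in replicate 1 and 90.0-fold higher in replicate 2. Another 49 bases on, Mir369 rose again to 3528 and 3613 CPM, 51.4-fold and 63.8-fold above Mir412. Mir410 followed after 218 bases at 123 and 122 CPM, 28.8-fold and 29.5-fold below Mir369. High and low genes thus alternated over this stretch in both libraries. The gap between gene rows is that of the annotation, and for Mir409 that of its stand-in row.

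The largest step was from Mir487b to Mir539, 714 bases apart, where the first was 135-fold and 179-fold higher. Past Mir539, at 48.4 and 30.8 CPM, the next detected gene, Mir382, was again 68.9-fold and 102-fold higher. Further steps of this kind were those from Mir134 to Mir668 (49.2-fold and 49.0-fold) and from Mir1193 to Mir666 (33.8-fold and 34.7-fold). Mir679 and Mir1193 lie only 20 bases apart, yet Mir1193 was 11.0-fold and 13.3-fold higher. Over the 32 pairs of consecutive detected genes the median difference in mean log2 CPM was 2.43, close to the 2.63 over all 528 pairs of detected members. Neighbours differed in level about as much as any pair of members.

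**Figure D3:**
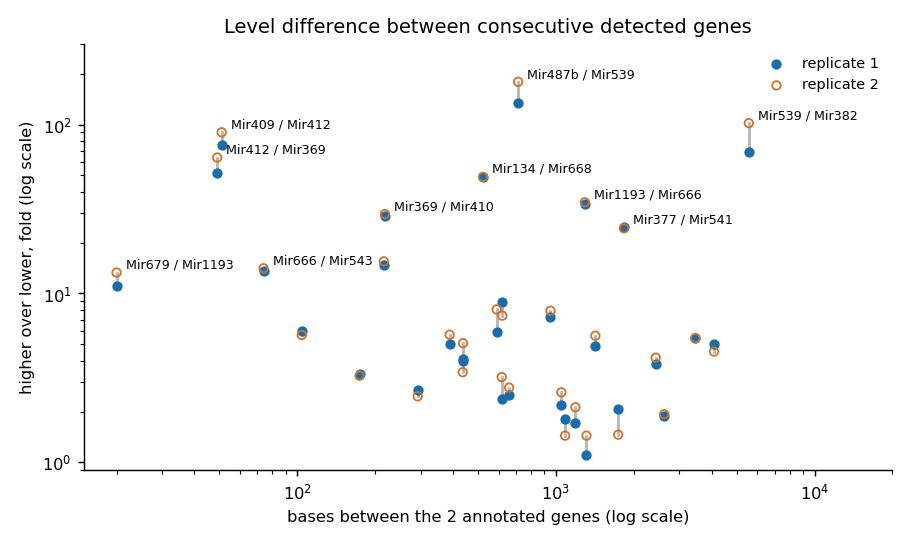
Fold between consecutive detected genes (higher over lower, log scale) against the bases between them (log scale), for replicate 1 (filled) and replicate 2 (open), with a line joining the libraries. Folds above 20 appear at gaps from 49 to 5568 bases. In some pairs the libraries lie apart, as at Mir539 and Mir382 with 68.9-fold and 102-fold.

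By seed family, Mir379 and Mir411 were the leading pair. Their genes summed to 10392 and 9876 CPM (10134 ± 365 CPM), of which Mir411 gave the larger part, 2.19-fold and 2.60-fold above Mir379. They lie 1049 bases apart at the Mir379 end of the cluster. Through its other arm Mir379 shares a seed with Mir1193, and this pair summed to 3875 ± 413 CPM, with Mir379 3.57-fold and 3.26-fold above Mir1193. Since both sums take in all reads of Mir379, they overlap and cannot be added.

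The other 3 families were low. Mir494 and Mir410, which start 6.26 and 34.66 kb into the cluster, summed to 363 ± 49.8 CPM, with Mir494 2.25-fold and 1.68-fold the higher. Mir496a reached 93.2 and 109 CPM, while its partner Mir453 had no count. Mir758 had 22.6 and 17.5 CPM and its partner Mir1197 4.16 and 1.39 CPM, the latter on 19 and 8 counts. The 9 members in families gave 27.8 ± 0.0640% of the cluster's total, so most of it came from genes whose listed seeds no other member has.

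**Figure D4:**
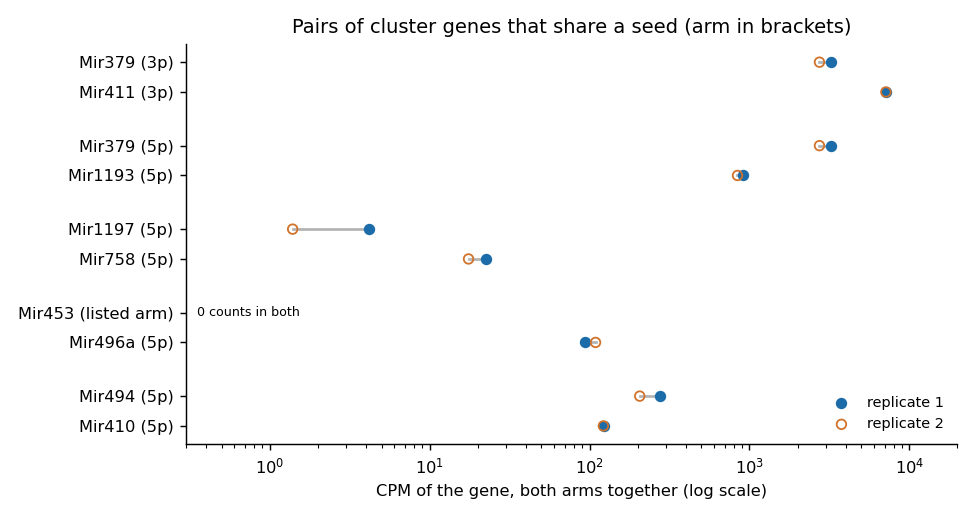
CPM (log scale) of the genes in the 5 pairs with a shared seed, with the arm that shares it in brackets, replicate 1 filled and replicate 2 open. The pairs of Mir379 lie near and above 1000 CPM, while Mir453 had 0 counts and is marked in words.

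Names do not always follow seeds. Mir376a (1747 and 1967 CPM) stood 7.26-fold and 7.91-fold above Mir376c (240.5 and 249 CPM). The listed 5p arm of Mir376c shares its seed with that of Mir376b, which had no row, and not with that of Mir376a. The 3p arm of Mir376c was not listed and was not compared. Mir381 stood 3.81-fold and 4.17-fold above Mir300, which lies 2430 bases upstream of it. Outside the cluster, 11 members had a seed that also stands in a miRNA elsewhere or in Mir376b. The 3p arm of Mir329 shares its seed with that of Mir362 of another locus. Mir329 had 133 and 141 CPM and Mir362 92.9 and 88.5 CPM. In the pairs of Mir412 and Mir377 the member was the lower. Mir412, at 68.6 and 56.7 CPM, shares the seed of its 3p arm with Mir1983, which had 2292 and 1775 CPM. Mir377, at 84.0 and 75.7 CPM, shares that of its 5p arm with Mir672, which had 153 and 104 CPM. Mir1193, at 912 and 842 CPM, was the higher beside Mir370, another gene of the domain, which had 423 and 384 CPM. They share a seed through the 3p arm of Mir1193 and the 5p arm of Mir370. The 3p arm of Mir410, a gene at 123 and 122 CPM, has the seed of the Mir344d and Mir344e genes. All of these had 0 counts among uniquely placed reads.

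The hairpins were poorer in G and C than those of other detected miRNA genes. Their median GC content was 43.0% over the 32 detected members with a RefSeq hairpin, from 29.1% at Mir376c to 72.3% at Mir3072. Over 284 other detected genes the median was 51.0%. Within the cluster, GC content against mean log2 CPM gave a Pearson r of -0.23 and a Spearman rho of -0.17 across the 32 genes. The folding energy per base predicted by RNAfold, a measure of how firmly the hairpin pairs, had a median of -0.418 kcal/mol in members and -0.440 kcal/mol in the other genes, and gave an r of 0.14 with level. Hairpin length gave an r of 0.01. All of these are descriptions across genes, which are not independent replicates. Of the 69 member arms 30 (43.5%) began with U, beside 37.0% of 548 arms of other detected genes.

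Set beside the upstream miRNA genes of the same imprinted domain, the cluster held more genes and more reads at a similar middle level. The upstream group and Mir1247 near Dio3 had 21 rows, of which 15 were detected and 4 exceeded 1000 CPM, and summed to 13668 ± 788 CPM. The cluster's sum was 2.98-fold and 3.07-fold that. Strands were read differently on the sides of this ratio. The cluster's sum takes in 9192 ± 6.02 CPM from the opposite strand of stand-in rows, and was 32137 CPM without them. The other domain rows were read on their own strand only. Counts opposite to the minus-strand rows Mir3071 and Mir1247 are therefore not in their sum. The upstream group was led by Mir127, antisense to Rtl1, with 5585 ± 435 CPM, by Mir431 at 3083 ± 227 CPM and by Mir337 at 1129 ± 40.9 CPM. Medians of log2 CPM were 8.23 ± 0.204 over the 33 detected members, 8.66 ± 0.098 over the 15 detected others of the domain and 6.72 ± 0.073 over all 330 detected genes outside the cluster. With all 38 members kept, the cluster's median was 7.51.

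Between the libraries the cluster was stable, with a small tilt towards replicate 1. Of 33 detected members 26 lay within 1.2-fold and 32 within 1.5-fold, while of the 330 other detected genes 52.7% and 82.7% did. These groups differ in depth. All 33 members had at least 100 counts in both libraries, but only 263 of all 363 detected genes did. Genes with fewer counts scatter more by counting error, and stability at like depth was not tested. An exact binomial test, two-sided, set the counts of each gene in the libraries against each other over all 363 detected genes, scaled by TMM and adjusted by Benjamini-Hochberg. The test sets the difference against counting error only and compares these libraries, not conditions. By it 14 members (42.4%) were higher in replicate 1, beside 27.5% of all tested genes, and 4 (12.1%) were higher in replicate 2, beside 28.1%. The other 15 did not pass. The median log2 ratio of replicate 2 to replicate 1 was -0.084 in the cluster, -0.150 in the 15 other domain genes and -0.001 in the 330 genes outside the cluster. Of those 15 domain genes, 9 were higher in replicate 1 and 2 in replicate 2. Members cut from shared RNA are not independent, and the cause of the tilt was not tested.

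The differences that passed were small. Mir539 differed most, with 48.4 and 30.8 CPM, a log2 ratio of -0.65 (adjusted p = 1.96e-05, exact binomial test). Mir494 had 276 and 206 CPM, Mir679 82.6 and 63.1 CPM, Mir495 74.5 and 60.6 CPM and Mir323 332 and 272 CPM, with log2 ratios of -0.42, -0.39, -0.30 and -0.29. Higher in replicate 2 were Mir496a, Mir376a, Mir380 and Mir369, at log2 ratios of 0.23, 0.17, 0.14 and 0.03. Deeply counted genes passed at small folds: Mir487b, with 29780 and 31890 counts, passed at a log2 ratio of -0.24, and Mir369, with 16097 and 20853 counts, at 0.03. Mir758, on 103 and 101 counts, had a ratio of -0.37 and did not pass (adjusted p = 0.124, exact binomial test).

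**Figure D5:**
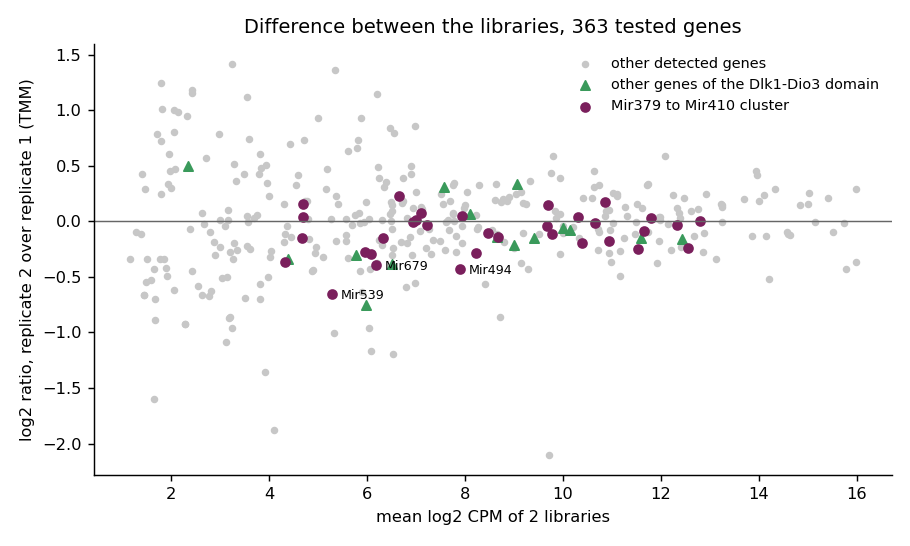
Log2 ratio of replicate 2 to replicate 1 (TMM-scaled) against mean log2 CPM for the 363 tested genes, with the cluster in purple and the other domain genes as green triangles. Most of the 33 members lie between -0.42 and 0.23, more of them below 0 than above, and Mir539 lies lowest at -0.65.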

How the data were processed

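Small RNA of mouse facial prominences was analysed in 2 libraries of 1 group. The deposited values are whole-number read counts per gene, made by the authors on mm10 with GENCODE M4, per the deposited description files. The files have no header. Of 3 count columns, the first equals the sum of the others, read here as both strands, the strand of the gene and the opposite strand. The sources used here do not name the aligner, trimming or counter. Reads with several places formed a class of their own (30.7% and 31.0% of reads) and belong to no gene.

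Names and positions came from GENCODE M21 (GRCm38), which matched 1894 of 1973 gene rows, and sequences from RefSeq (GRCm38.p6). CPM used the same-strand gene total. Differences between libraries were tested across all genes with at least 10 counts in both, by the exact binomial test. It used TMM factors of edgeR 4.0.16 (R 4.3.3) and Benjamini-Hochberg at 0.05. The test was tried on simulated counts that held set folds and counting error only. That trial does not cover other variation between libraries. DESeq2 1.42.0 size factors and total counts were alternatives. Log2 CPM had 0.5 reads added. Hairpins were folded with RNAfold 2.7.2. Named were the 20 highest members, members of seed families, the 4 stand-in genes, the extremes of each section, those next to the count minimum, up to 5 members per library with the largest ratios that passed with mean counts no lower than 100, and the 3 highest other domain genes. Other genes, such as Mir412 and Mir666 beside high neighbours and the partners in seed outside the cluster, were named after their values were seen. The members and lists were chosen with earlier results of these data known.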

Additional observations from a re-analysis of the deposited data

Results flagged for a closer look

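Counts outside the columns used for the cluster appeared at 1 member row. The Mir299b row, read on its opposite strand for Mir299a, also had 17 counts on its own strand in replicate 1 and 18 in replicate 2, above the floor of 3 counts. They equal 3.73 and 3.12 CPM, or 2.61 and 2.49 per 1000 counts of the other strand. The other 3 stand-in rows had 0 counts on their own strand in both libraries, and so did the 34 plus-strand members on the strand opposite to them. The arms of Mir299a and Mir299b share most of their bases, and which of the genes these reads came from was not tested.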

How the results depend on the processing

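Apart from leaving out a library, 45 alternative values were computed, and 37 moved by less than the spread between libraries or, for counts of genes, by at most 1.5 times. Some of the 37 could hardly move. Pair totals under the shorter seed were compared only where the pair stayed the same. For members the unstranded column adds only 17 and 18 counts, at the Mir299b row. The median log2 ratio was set against the spread of the median log2 CPM, 0.204, and not against a spread of its own. The other 8 values follow. The cluster's total rose from 41329 to 44221 CPM over a total without the most abundant gene and was 32137 CPM without the 4 stand-in rows. Its share was 4.02% with all members over both strands, against 3.21% for plus-strand members. Keeping undetected members gave median log2 CPM of 7.515 for the cluster (8.232 otherwise), 7.934 for the middle section (9.489) and 6.798 for the last (6.937). A pseudocount of 5 moved the last section to 6.947, more than its spread of 0.002. Sections of equal gene number put the middle section at 8.671. The 14 (42.4%) and 4 (12.1%) members called higher in replicates 1 and 2 were the same numbers under 4 alternatives. Under DESeq2 size factors, total counts and the unstranded column, 27.3 to 28.2% and 28.1 to 28.5% of all tested genes were called. With a minimum of 100 the shares of all tested genes rose to 33.8% and 35.0%. With a minimum of 1 they were 16.8% and 21.1%, and the members called became 13 (37.1%) and 6 (17.1%). With seeds of bases 2 to 7 there were 7 families, not 5, the added pairs being Mir495 with Mir382 (3313 CPM) and Mir329 with Mir377 (217 CPM).

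Leaving out a library gave a total of 40230.1 to 42427 CPM, a share of 3.10 to 3.32%, 33 to 34 detected members and 11 above 1000 CPM. With 2 libraries each SD rests on 1 difference. No paired analysis was possible because there is only 1 group.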
